A study of Homo sapiens with 12 samples.

Results

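The metallothioneins described here are the 8 genes MT1A, MT1E, MT1F, MT1G, MT1H, MT1M, MT1X and MT2A. Their probes were taken by gene symbol from the annotation of an Illumina expression array, which named 18852 genes. That gave 9 of the 48803 probes on the array and covered 7 of the 8 genes. No probe was listed for MT1A, which was not analysed here. The arrays measured RNA from HDLM-2, a long-established line of human Hodgkin lymphoma cells, so every group rests on 1 line and on the same genotype. There were 4 groups of 3 arrays, all collected after 24 h in culture: 10 µM perifosine with 5 µM sorafenib, 5 µM sorafenib alone, 10 µM perifosine alone, and the untreated control. Perifosine is an alkylphospholipid that inhibits AKT signalling, and sorafenib inhibits RAF and several receptor tyrosine kinases. No source says whether the 3 arrays of each group stem from independent cultures, and p-values therefore refer to the variation among these arrays, which may be technical.

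Metallothioneins are small proteins, rich in cysteine, that bind zinc, copper and cadmium. When zinc is plentiful or cadmium enters the cell, the transcription factor MTF1 binds metal response elements in their promoters and raises their transcription. Glucocorticoids and oxidants also induce several of them, and in lymphoid cells they buffer zinc. MT2A is the most widely used human form, and the MT1 genes are recent copies of each other with closely similar transcripts. The probe sequences were not used here, so how far a probe also binds the transcript of a neighbouring copy was not tested, and each value below belongs to a probe and may hold signal from more than its named gene.

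The 8 genes lie on the long arm of chromosome 16, interspersed with other genes and pseudogenes of the family, within 75.613 kb of the GRCh38.p14 assembly as annotated by RefSeq. MT2A opens the stretch at 56608584 to 56609497, followed by MT1E at 56625781 to 56627112, MT1M at 56632659 to 56633981, MT1A at 56638666 to 56640087 and MT1F at 56657959 to 56659303. MT1G, at 56666730 to 56668065, and MT1H, at 56669814 to 56671129, are neighbours, and MT1X closes the stretch at 56682470 to 56684196. The whole cluster holds 16 genes, of which 11 code for protein and 5 are pseudogenes. Of the other genes of the cluster, those with a listed probe were at or near background: the probe of MT1B passed the background threshold on 1 of the 12 arrays, and the probes of MT1L, MT3 (a brain form) and MT4 (a form of squamous epithelium) on 0.

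**Figure D1:**
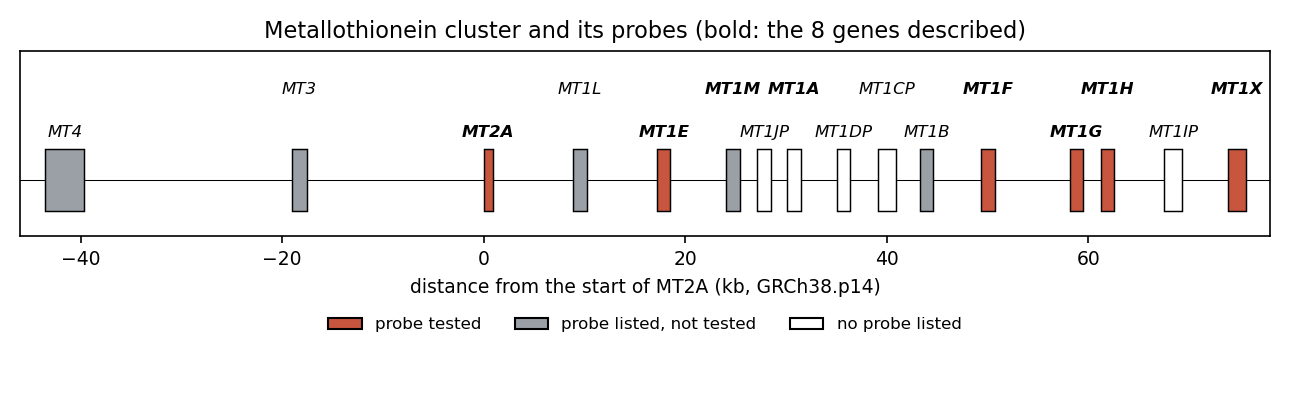
Map of the metallothionein cluster on chromosome 16, with distance from the start of MT2A in kb on the horizontal axis and each box drawn over its annotated gene. Filled boxes in red are genes with a tested probe, grey boxes have a listed probe that was not tested and white boxes have no listed probe; 6 of the 8 genes described, in bold, were tested.

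Promoter sequences were at hand for 3 of the 8 genes, MT2A, MT1H and MT1X. Over the 12 arrays the log2 signals of MT1H and MT2A correlated at 0.81, and MT1X with them at 0.09 and -0.02. Whether the promoters bear on this was not tested. They are shown because the metal response element is the defining control sequence of the family. Each is RefSeq sequence of GRCh38.p14 on the plus strand, from 250 bases before the annotated start to 50 bases after it, at chr16:56608334-56608633 for MT2A, chr16:56669564-56669863 for MT1H and chr16:56682220-56682519 for MT1X. Capitals mark every match, on either strand, to the core of the metal response element, searched as TGCACNC or TGCGCNC, where N is any base. No matches overlap each other in these sequences.
MT2A: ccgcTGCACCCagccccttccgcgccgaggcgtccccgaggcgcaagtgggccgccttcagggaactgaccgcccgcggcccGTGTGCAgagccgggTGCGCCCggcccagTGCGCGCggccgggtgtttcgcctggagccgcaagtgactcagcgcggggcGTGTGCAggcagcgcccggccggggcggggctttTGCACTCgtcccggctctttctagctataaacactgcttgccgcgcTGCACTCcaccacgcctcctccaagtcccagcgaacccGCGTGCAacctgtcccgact
MT1H: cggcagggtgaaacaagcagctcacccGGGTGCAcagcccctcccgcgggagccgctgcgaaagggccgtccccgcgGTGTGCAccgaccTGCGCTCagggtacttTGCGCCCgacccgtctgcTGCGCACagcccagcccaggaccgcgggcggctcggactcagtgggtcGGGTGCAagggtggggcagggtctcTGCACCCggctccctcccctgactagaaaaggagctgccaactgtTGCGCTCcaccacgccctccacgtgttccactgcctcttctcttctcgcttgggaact
MT1X: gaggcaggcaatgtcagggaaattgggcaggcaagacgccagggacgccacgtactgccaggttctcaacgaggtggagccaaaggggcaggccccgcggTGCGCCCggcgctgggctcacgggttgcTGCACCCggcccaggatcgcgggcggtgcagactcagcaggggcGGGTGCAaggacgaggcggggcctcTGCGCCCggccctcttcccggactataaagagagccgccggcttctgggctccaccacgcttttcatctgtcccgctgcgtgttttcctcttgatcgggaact

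The promoters of MT2A and MT1H each held 8 matches, 5 on the plus strand and 3 on the minus strand, and that of MT1X held 4, of which 3 were on the plus strand. All 3 carried a match about the same distance upstream, beginning at position -54 in MT2A and at -53 in MT1H and MT1X. MT1H and MT1X shared a further match on the minus strand, from -78 to -72, and MT2A and MT1H shared one from -8 to -2. At least 1 match stood in 8014 of 27305 promoters of this length, or 29.35%, at least 4 stood in 0.593% and at least 8 in 0.022%. GC content was 72.0% in MT2A, 68.3% in MT1H and 67.0% in MT1X. These letters describe the sequence only, and binding of MTF1 was not measured.

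Of the 9 probes, 6 were above background on all 12 arrays and were tested, with 1 each for MT1E, MT1F, MT1G, MT1H, MT1X and MT2A. A probe counted as above background when its deposited signal, in the array's linear intensity units, passed a threshold of 224.1 to 224.9, and it was tested when it did so on at least 3 arrays. The only probe of MT1M stayed between 157.3 and 208.8 and passed on 0 arrays. MT1E and MT1H each had a second probe that did not follow the first. The second MT1E probe read 194 to 232.8 and passed on 2 of 12 arrays, while the tested MT1E probe read 14890.4 to 18085.8. The second MT1H probe read 132.4 to 209.6 and passed on 0 arrays, while the tested MT1H probe read 1008.5 to 1723.7. Which transcripts each probe of such a pair binds was not tested.

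The 12 arrays had median signals of 216.4 to 216.6 and 21991 to 22171 probes above background, and their log2 signals correlated across probes at 0.985 to 0.993. Of 9 Hodgkin cell markers, 8 were above background on all 12 arrays, CD30 (TNFRSF8) and the chemokine CCL17 among them, and IL13 was above it on 0 arrays. None of 5 T cell markers was above background on all 12 arrays. Markers that were so included MS4A1 of 4 B cell markers, CD68 and CSF1R of 5 myeloid markers, and PECAM1 of 5 fibroblast and endothelial markers, of which COL3A1 and VWF were above it on 0 arrays. With sorafenib over both backgrounds, 2 of 8 tested Hodgkin cell markers rose (TRAF1 and CCL17) and 1 fell (CD274). For it limma called 0 of 3 B cell, 0 of 4 T cell, 0 of 5 myeloid and 0 of 2 fibroblast and endothelial markers. An unadjusted p under 0.05 was reached by 5 of the 8 Hodgkin cell markers and by 0 of the markers outside that list. Several of the latter were near background, such as CD3G and CD79B at mean signals of 218.5 and 216.3. Over all probes 1.91% were called and 15% had an unadjusted p under 0.05. In bulk RNA such as this, fewer cells with a transcript and less of it per cell cannot be told apart.

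MT1F was the only metallothionein tested with a limma adjusted p under 0.05 for sorafenib, pooled over arrays with and without perifosine. It was 1.26-fold higher on the arrays with sorafenib. MT1H was 1.28-fold higher in the same comparison, with a limma adjusted p of 0.118. In cells given both drugs MT1F read 26243.3, 24566.7 and 23142.6, and in cells given sorafenib alone 24381.6, 25621.2 and 24254.5. In cells given perifosine alone it read 19644.7, 20520.4 and 20042.4, and in control cells 20520.4, 19644.7 and 17552.1. All 6 arrays with sorafenib were above all 6 without it, and perifosine and control arrays overlapped. Some values, such as 20520.4, occur on more than 1 array, and the deposited arrays share a common distribution. The group means were 24650.9 ± 1552.1 with both drugs, 24752.4 ± 755.1 with sorafenib, 20069.2 ± 438.5 with perifosine and 19239.1 ± 1525.2 in the control (SD, n = 3 each). By brightness among the 48803 probes of its array, MT1F ranked 456 to 536 with sorafenib and 620 to 746 without it.

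The effect of sorafenib over both backgrounds is the mean of sorafenib against control and of both drugs against perifosine, fitted with limma to all 12 arrays. For MT1F this log2 change was 0.33 ± 0.08 (SE), or 1.26-fold with a 95% interval of 1.12 to 1.41, and the limma adjusted p over 25409 probes was 0.0424. MT1F was 1 of 6 metallothionein probes called at an adjusted p under 0.05, and 1.91% of all probes tested were called. Its arrays did not overlap, which held in the same direction for 2.01% of all probes. With any 1 of the 12 arrays left out the MT1F call was lost, at adjusted p of 0.0544 to 0.104, while the log2 change stayed between 0.30 and 0.36.

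MT1H, the MT1 copy next to MT1G, had a change of similar size and a wider spread. It read 1697, 1386.5 and 1717.8 with both drugs and 1615.9, 1627.3 and 1723.7 with sorafenib alone. With perifosine alone it read 1287.3, 1472.2 and 1417.6, and in the control 1242.2, 1432 and 1008.5. All sorafenib arrays lay above all control arrays, but combination replicate B lay below 2 perifosine arrays and 1 control array. Over both backgrounds the log2 change was 0.35 ± 0.11 (SE), 1.28-fold, with an adjusted p of 0.118, so MT1H did not pass the test.

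MT2A, the most widely used form, did not pass the test in any comparison. It read 27681.6, 28815.2 and 27964.5 with both drugs, and 29587.7, 30497.5 and 32657.4 with sorafenib alone. With perifosine alone it read 27755.4, 28953.6 and 27900.7, and in the control 24157.8, 27655.7 and 23304.7. Every array with a drug was above every control array, although combination replicate A, at 27681.6, was close to control replicate B at 27655.7. The 3 sorafenib arrays were the highest of the 12. For neither order was the share of all probes counted. Combination and perifosine arrays covered the same range. The log2 change was 0.31 ± 0.11 (SE) for sorafenib against control, with an adjusted p of 0.247, and -0.00 for both drugs against perifosine, with an adjusted p of 0.996. The difference between these changes is the interaction of the drugs, -0.31 ± 0.15 (SE) for MT2A, with an unadjusted p of 0.0615 and an adjusted p of 0.719.

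MT1G, which like its neighbours encodes a zinc-binding protein, stood highest when both drugs were given. It read 538.1, 462.6 and 455.8 with both drugs, 426.8, 413.8 and 439.5 with sorafenib, 434.2, 416.2 and 413.6 with perifosine, and 405.1, 453.8 and 384.5 in the control. All 3 combination arrays were above the other 9, although the lowest of them, 455.8, was close to control replicate B at 453.8. The share of all probes with this order was not counted. The log2 change was 0.31 ± 0.13 (SE) for both drugs against control, 0.27 ± 0.13 against perifosine and 0.25 ± 0.13 against sorafenib, with adjusted p of 0.417, 0.454 and 0.842. None of these passed the test. Without combination replicate A, the highest array, the log2 changes were 0.21 against control, 0.17 against perifosine and 0.15 against sorafenib.

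MT1E and MT1X, further MT1 copies, showed no order among the groups. MT1E averaged 15999.8 ± 1011 with both drugs, 15591.6 ± 708.1 with sorafenib, 15396.1 ± 553.2 with perifosine and 16613.4 ± 1371.8 in the control (SD, n = 3 each). MT1X averaged 12830 ± 85.5 with both drugs, 12527.7 ± 2028.5 with sorafenib, 12558.2 ± 777.5 with perifosine and 12917.8 ± 1985.7 in the control. Every pair of groups overlapped for both genes. The MT1X spread rests on single arrays, since sorafenib replicate C read 10248.5 against 13199.6 and 14135 in the other sorafenib arrays, and control replicate B read 15210.6 against 11758 and 11784.6. Over both backgrounds the log2 change was -0.02 ± 0.08 (SE) for MT1E and -0.01 ± 0.10 for MT1X, with adjusted p of 0.948 and 0.985. The 95% intervals of the fold were 0.88 to 1.11 for MT1E and 0.854 to 1.16 for MT1X.

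**Figure D2:**
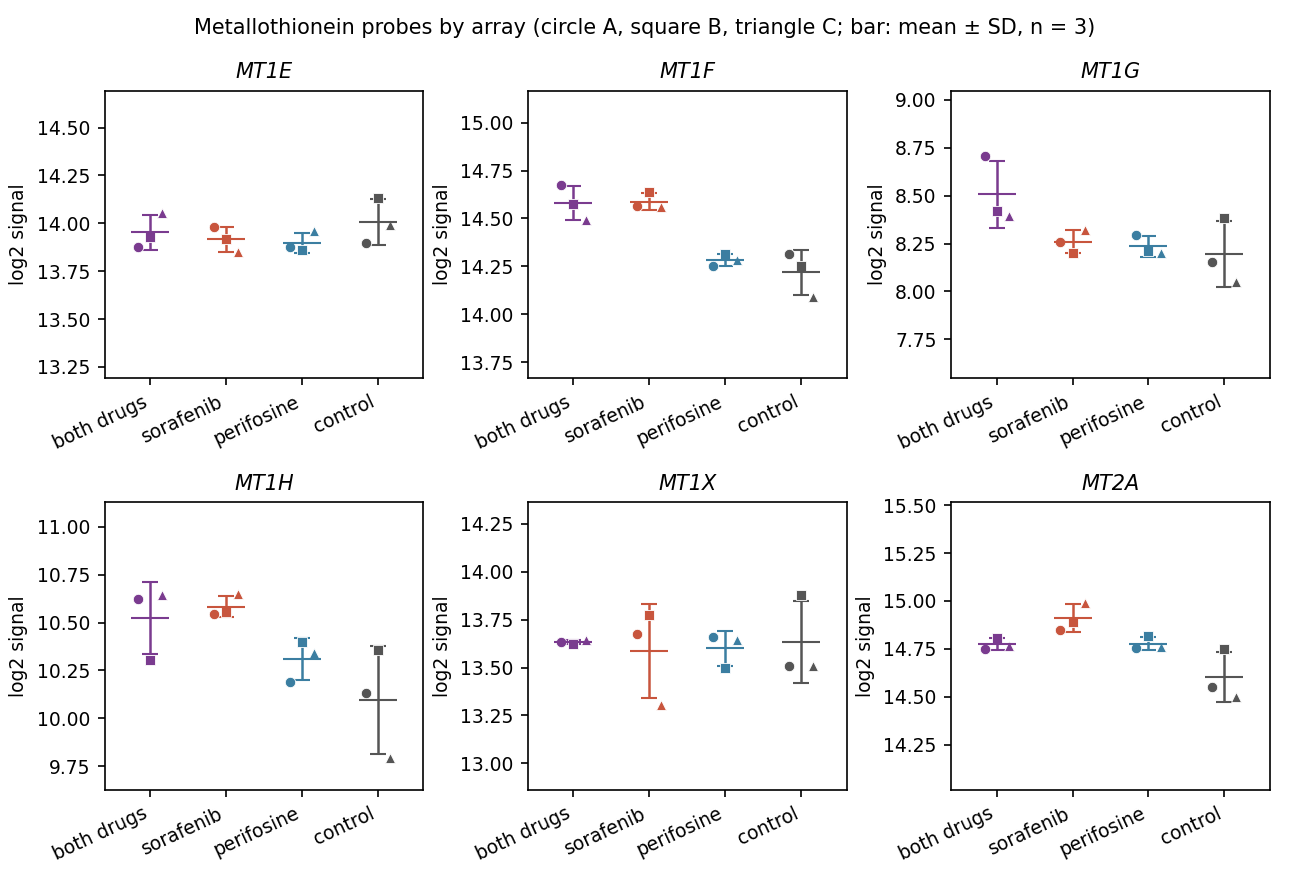
Log2 signal after background correction (vertical axis, a different range for each gene at the same scale) of the 6 tested metallothionein probes, by group on the horizontal axis. Points are arrays (circle replicate A, square B, triangle C), the long bar is the mean and the caps are ± SD (n = 3); for MT1F the 6 arrays with sorafenib lie above the 6 without it, and for MT1E and MT1X all groups overlap.

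Between single groups no metallothionein passed the test. For sorafenib against control the count was 0 of 6, where 0.449% of all probes were called, although 3 of 6 had an unadjusted p under 0.05, against 12.7% of all probes. MT1F, MT1H and MT2A each had 3 sorafenib arrays above the 3 control arrays, which held for 9.75% of all probes. For both drugs against control the count was 0 of 6 (0.327% of all probes), with 3 of 6 at an unadjusted p under 0.05 (10.3%). Here MT1F, MT1G and MT2A had all combination arrays above all control arrays (9.71%), and MT1F changed by 0.36 ± 0.11 (SE) on the log2 scale with an adjusted p of 0.243. Both comparisons share the control arrays.

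For both drugs against perifosine, which shares no array with sorafenib against control, 0 of 6 were called (0.295% of all probes) and 2 of 6 had an unadjusted p under 0.05 (11%). MT1F, with a log2 change of 0.30 ± 0.11 (SE) and an adjusted p of 0.328, and MT1G were higher on every combination array than on every perifosine array, as were 8.5% of all probes. In sorafenib against control MT1F had changed by 0.37 ± 0.11, with an adjusted p of 0.174. Over both backgrounds 2 of 6, MT1F and MT1H, had an unadjusted p under 0.05, against 15% of all probes.

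Perifosine moved no metallothionein past the test. For perifosine against control limma called 0 of 6 and 0% of all probes, with 0 of 6 at an unadjusted p under 0.05 (4.01% of all probes). MT2A alone had all perifosine arrays above all control arrays (4.24% of all probes), with a log2 change of 0.18 ± 0.11 (SE), and the adjusted p of all 6 was 0.9997. For both drugs against sorafenib the counts were again 0 of 6 and 0% of all probes, and 0 of 6 at an unadjusted p under 0.05 (5.97%). MT1G was higher on all combination arrays (6.13% of all probes) and MT2A lower on all of them (5.21%), with a log2 change of -0.13 ± 0.11 and an adjusted p of 0.894. The interaction called 0 of 6 and 0% of all probes, with 0 of 6 at an unadjusted p under 0.05 (6.81%). The moderated F test for any difference among the 4 groups called 0 of 6 (0.437%), with MT1F and MT1H at an unadjusted p under 0.05 (11%) and adjusted p of 0.241 and 0.354.

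The changes of the 6 probes were small in every comparison. The median log2 change was 0.19 for sorafenib against control (-0.01 over all probes), 0.05 for perifosine against control (-0.00), 0.24 for both drugs against control (-0.00) and 0.16 for sorafenib over both backgrounds (-0.01), where 4 of 6 were above 0 against 47.9% of all probes. Over 30 tests in the 5 comparisons between groups the fold lay between 0.911 and 1.40, and the widest 95% intervals reached 0.767 and 1.75, so 0 of the intervals reached a 2-fold change in either direction. The spread between replicates was itself uneven: the median SD of the 6 probes, in log2 units, was 0.09 with both drugs (0.15 over all tested probes), 0.06 with sorafenib (0.18), 0.05 with perifosine (0.19) and 0.15 in the control (0.15). The tested probes were not matched to these 6 for brightness, so the spreads are not directly comparable.

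**Figure D3:**
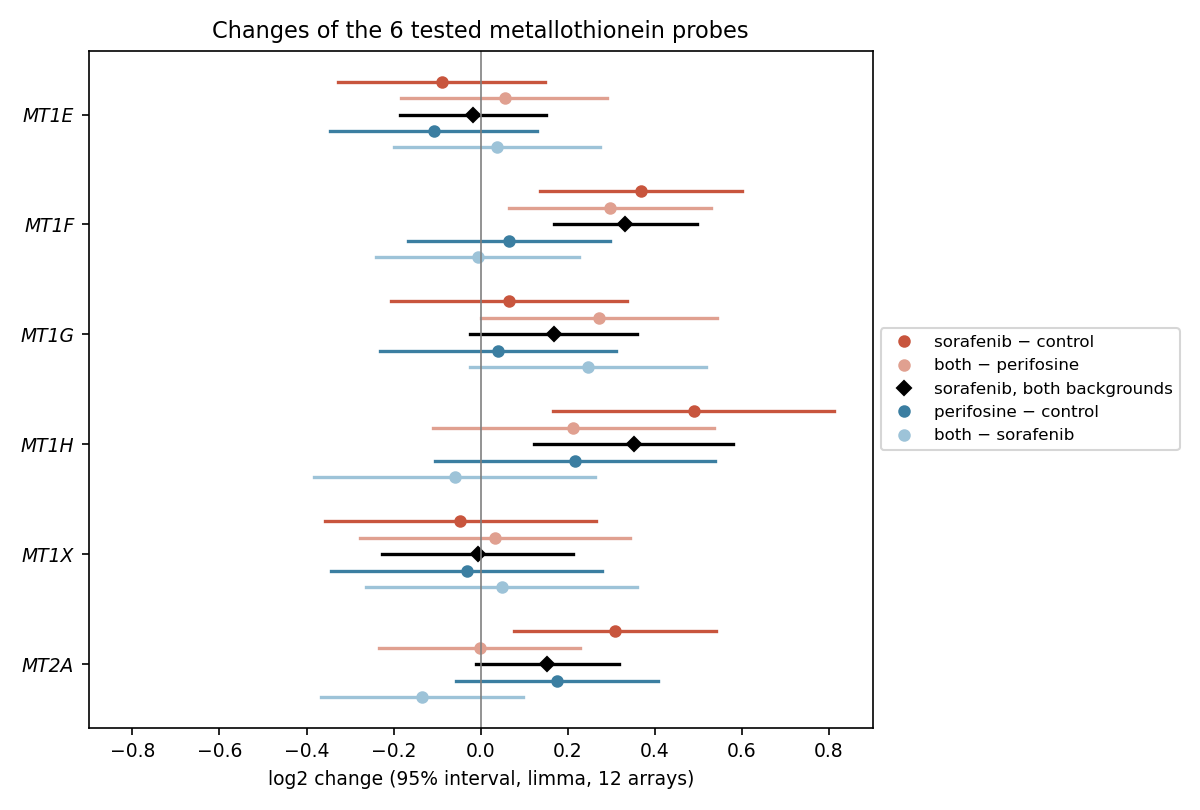
Log2 change (horizontal axis) of the 6 tested metallothionein probes with 95% intervals from limma, for sorafenib against control, both drugs against perifosine, the mean of these over both backgrounds, perifosine against control and both drugs against sorafenib. MT1F has all 3 of its sorafenib intervals above 0 and the interval for sorafenib over both backgrounds runs from 0.17 to 0.50.

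The probes of these near-identical genes were unevenly alike. Over the 12 arrays the 15 pairs of probes had Pearson correlations of log2 signal from -0.28 to 0.82 with a median of 0.21, given as a description of arrays that share their drug groups and normalisation. Among MT1F, MT1H, MT2A and MT1G the pairs ran from 0.32, for MT1G with MT2A, to 0.82, for MT1F with MT1H, and MT1H with MT2A stood at 0.81. MT1E with MT1X stood at 0.63, and both lay between -0.28 and 0.21 with the other 4. After each group's mean was subtracted, MT1E with MT1X stood at 0.67, MT1H with MT2A at 0.62, MT1G with MT1H at 0.60 and MT1F with MT1H at 0.48, and 13 of 15 pairs were above 0. The division was then less clear, since MT1F with MT2A stood at 0.24, below MT1E with MT1H at 0.31 and MT1E with MT2A at 0.27. MT1G and MT1H are neighbours on the chromosome, while MT1E and MT1X are not.

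**Figure D4:**
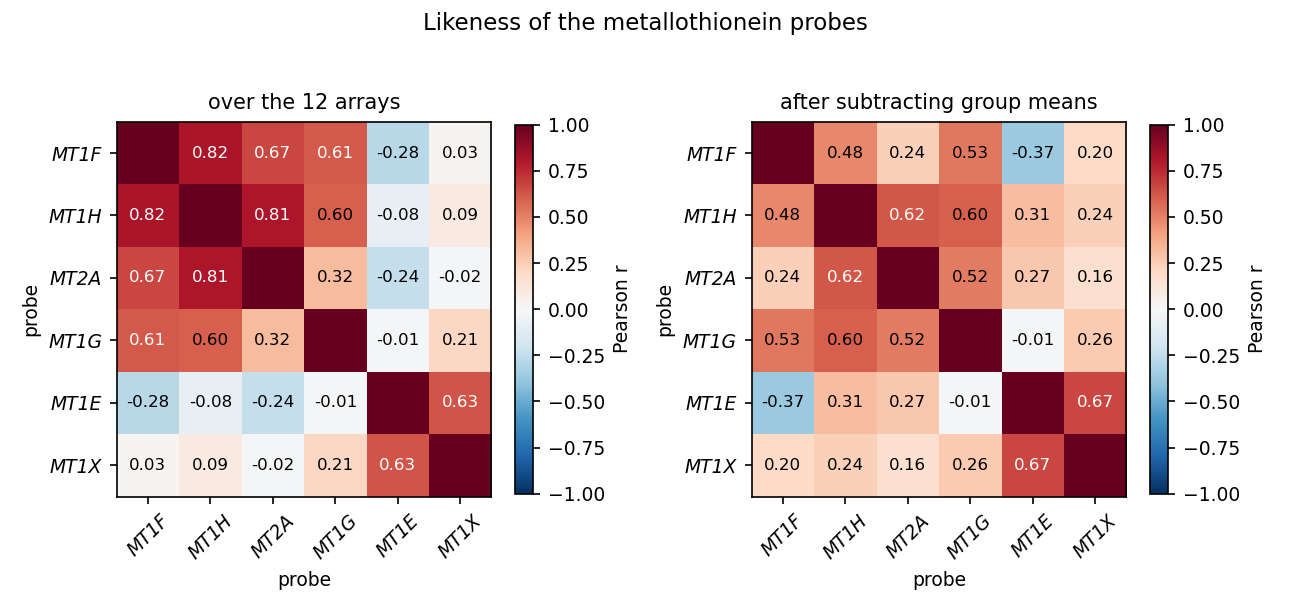
Pearson correlation between the log2 signals of each pair of tested metallothionein probes, over the 12 arrays (left) and after subtracting group means (right), with colour and printed value from -1 (blue) to 1 (red). Over the 12 arrays the pairs among MT1F, MT1H, MT2A and MT1G run from 0.32 to 0.82, and MT1E with MT1X stands at 0.63 on the left and 0.67 on the right.

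Genes that sense and move metal did not pass the test in any comparison. The list held 33 genes of zinc, copper and iron handling, of which 30 had a tested probe. For sorafenib over both backgrounds limma called 0 of 30 in either direction (1.91% of all probes). An unadjusted p under 0.05 was reached by 1 of 30 (15% of all probes). The log2 change was above 0 in 12 of 30 (47.9% of all probes), with a median of -0.03. The zinc exporter SLC30A1, which is also a target of MTF1, and MTF1 itself are named for their part in metallothionein control and were chosen after their values were seen. SLC30A1 read 675.5, 704.6 and 649.8 with both drugs, 662.7, 612.2 and 695.8 with sorafenib, 777.8, 805.4 and 889.7 with perifosine, and 807.3, 748.2 and 737.4 in the control. All 6 arrays with sorafenib were below all 6 without it for 2 of 30 genes, SLC30A1 and FTL, although FTL changed by only -0.04. The share of all probes separated this way was not counted. For SLC30A1 the log2 change was -0.30 ± 0.08 (SE) with an adjusted p of 0.0797, and a second SLC30A1 probe gave -0.23 with an adjusted p of 0.290. MTF1 gave -0.11 ± 0.17 with an adjusted p of 0.815, and perifosine replicate B read 5603.7 where the other 11 arrays read 2423 to 3745.7.

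Genes induced by metal and oxidant stress lay mostly below 0 for sorafenib over both backgrounds. Of 15 listed genes 13 were tested. For sorafenib over both backgrounds limma called 0 of 13 in either direction (1.91% of all probes). An unadjusted p under 0.05 was reached by 4 of 13 (15% of all probes). The log2 change was above 0 in 2 of 13 (47.9% of all probes), with a median of -0.12. SLC7A11, at 0.17, and NQO1, at 0.07, were the 2 above 0. For perifosine against control 8 of 13 were above 0 (49.3% of all probes), with a median of 0.01. HMOX1, the heme oxygenase that metals and oxidants induce, and the heat shock cochaperone DNAJB1 were also chosen after their values were seen. HMOX1 read 1036.8, 1310.5 and 1252.9 with both drugs, 1135, 1020.7 and 1184.9 with sorafenib, 1378.4, 1335.8 and 1748.4 with perifosine, and 1470.2, 1459.1 and 1468.3 in the control. Each of the 6 arrays with sorafenib was below each of the 6 without it for 2 of 13 genes, HMOX1 and DNAJB1, and neither passed the test. The share of all probes separated this way was not counted. The log2 changes were -0.39 ± 0.10 (SE) for HMOX1 and -0.34 ± 0.08 for DNAJB1, with adjusted p of 0.0685 and 0.0515.

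Among 12 glucocorticoid-responsive genes 8 were tested. With sorafenib over both backgrounds 1 rose and 0 fell, where 1.91% of all probes were called in either direction. In the same comparison 2 of 8 had an unadjusted p under 0.05 (15% of all probes). The log2 change was above 0 in 6 of 8 (47.9% of all probes), with a median of 0.08. FKBP5, at -0.15, and SGK1, at -0.12, lay below 0. The gene that rose was TSC22D3, which encodes the glucocorticoid-induced leucine zipper, at a log2 change of 0.47 ± 0.11 (SE) and an adjusted p of 0.0406. TSC22D3 read 778.1, 867.4 and 854.6 with both drugs, 583.5, 716.3 and 856.3 with sorafenib, 585.7, 580.2 and 533.1 with perifosine, and 610.7, 610 and 616.7 in the control. Sorafenib replicate A lay below all control arrays. The call was kept in 1 of 12 fits with an array left out, the fit without sorafenib replicate A. A second probe of TSC22D3 gave 0.74 with an adjusted p of 0.00094.

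Among 12 genes that flank the cluster on chromosome 16, 7 were tested, with a median log2 change of -0.11 for sorafenib over both backgrounds. Of these 1 rose and 0 fell, where 1.91% of all probes were called in either direction. Of the 7, 2 had an unadjusted p under 0.05 (15% of all probes) and 2 had a log2 change above 0 (47.9% of all probes). GNAO1, near background at a mean signal of 212.9, gave -0.415 with a limma adjusted p of 0.109. The gene that rose was BBS2, a subunit of the BBSome that carries cargo to cilia. BBS2 read 810, 938.2 and 844.8 with both drugs, 846.3, 920.7 and 842.2 with sorafenib, 651.8, 765 and 691.1 with perifosine, and 668.6, 589.2 and 698.1 in the control. All 6 arrays with sorafenib were above all 6 without it, as held for 2.01% of all probes. The log2 change was 0.43 ± 0.09 (SE) with an adjusted p of 0.0272, and a second BBS2 probe gave 0.35 with an adjusted p of 0.0825. With 1 array left out the call was kept in 4 of 12 fits, those without control replicate C, perifosine replicate B, sorafenib replicate C or combination replicate A.

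**Figure D5:**
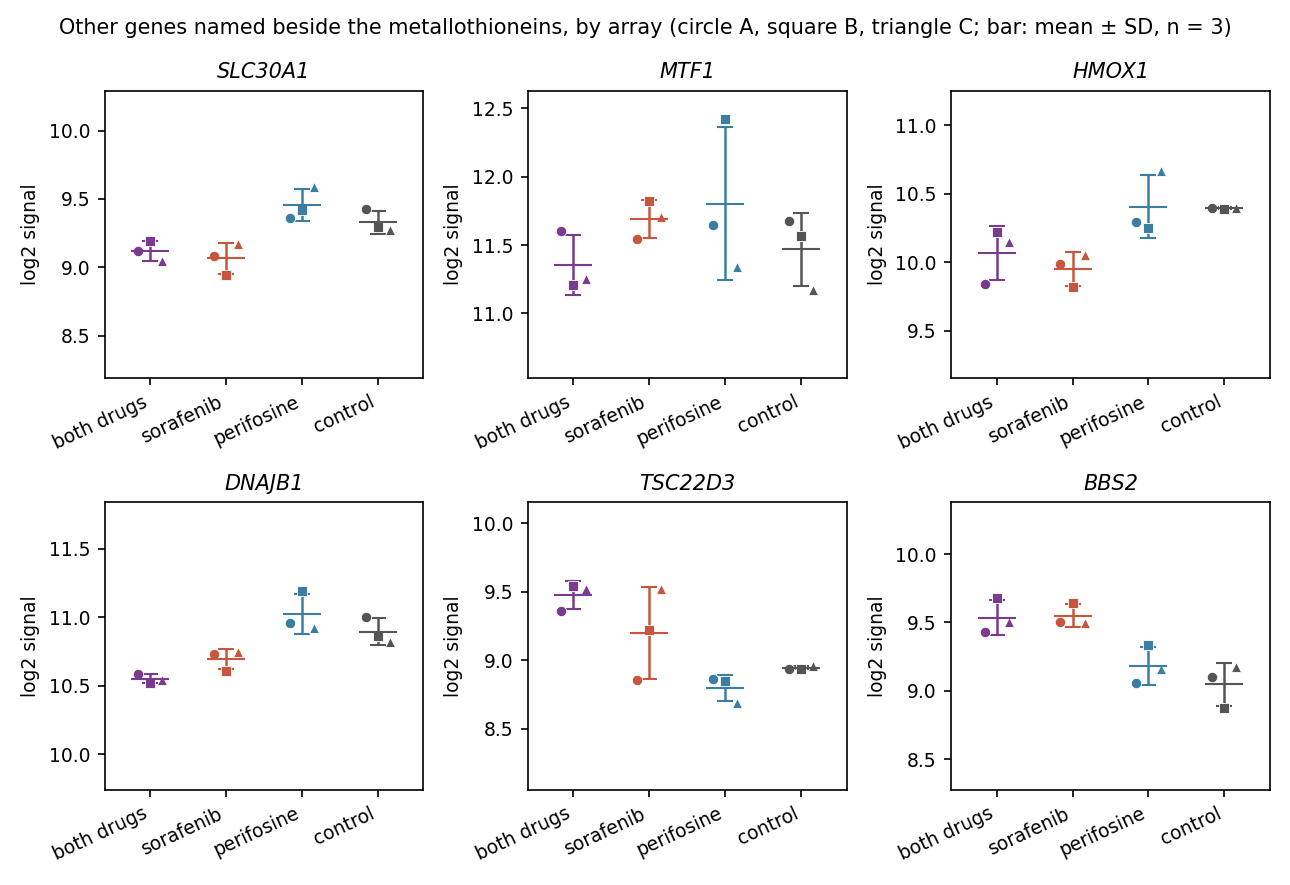
Log2 signal after background correction (vertical axis) of SLC30A1, MTF1, HMOX1, DNAJB1, TSC22D3 and BBS2 by group on the horizontal axis, with points for arrays (circle replicate A, square B, triangle C), a long bar for the mean and caps for ± SD (n = 3). SLC30A1, HMOX1 and DNAJB1 have all 6 arrays with sorafenib below the 6 without it, BBS2 has them above, and MTF1 has perifosine replicate B apart at 12.42. The share of all probes with the sorafenib arrays below was not counted.

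The genes whose pattern over the 12 arrays was most like the mean of the 6 metallothionein probes were PPP1R3D, DNAJC12, CYSTM1, PLGRKT and OCIAD2, with Pearson correlations of 0.94, 0.93, 0.927, 0.924 and 0.915 among 13452 genes compared. PPP1R3D is a glycogen-targeting subunit of protein phosphatase 1 and DNAJC12 a cochaperone of the aromatic amino acid hydroxylases. Of these DNAJC12 rose with sorafenib over both backgrounds, by 0.37 on the log2 scale with an adjusted p of 0.0482, where 1.91% of all probes were called. The most opposite patterns were those of MACROD1 and GTPBP4 at -0.929, PAICS at -0.927, SYNCRIP at -0.926 and DHX9 at -0.914. The RNA helicase DHX9 fell with sorafenib over both backgrounds, by 0.46 on the log2 scale with an adjusted p of 0.0414. These are the extremes of many genes over 12 arrays that share their groups, and the correlations describe these arrays only. The metallothionein mean was itself mostly higher with sorafenib. The direction in which genes picked by correlation with it moved with sorafenib is therefore no separate result.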

How the data were processed

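RNA of HDLM-2 cells was measured on 12 Illumina arrays. The authors deposited 1 processed intensity per probe and array, made with BeadStudio per the submitters' processing notes; its version and the normalization are not given in the sources used here. The sorted deposited intensities of the 12 arrays differed by a median of 0.0519% and at most 1.09%, and a value as low as 109.7 remained, so the intensities shared a distribution and kept a background. A non-normalized table was not used, because its 24 value columns matched no label. Probes were named from the platform annotation: 28098 had 1 gene symbol, 13 several and 20692 were unlisted.

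Background was corrected with normexp (offset 16), arrays were quantile normalized and log2 was taken, so log2 changes are not exact ratios of the deposited intensities. A probe was tested if it passed, on at least 3 arrays, the mode of the array's signal plus the upper 5% point of its dim side. The fit on 25409 probes used limma 3.58.1 in R 4.3.3, 1 mean per group, with a median residual SD of 0.199 and 13.2 degrees of freedom in total, and Benjamini-Hochberg adjusted p-values within each comparison, called under 0.05. The number of arrays limits the precision. Simulated data with planted changes were used to test this fit.

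The members, the gene lists and the pair of arrays left out together were chosen with earlier results of these data known. Every probe of a member is described. From each other list at most 4 genes could be named, called ones first. In the metal handling and stress lists none was called. Genes there were named after their values were seen, not by brightness as planned. The genes most like the family were the 5 highest and 5 lowest by Pearson correlation with the mean of the centred member probes. Lists were counted on each gene's brightest tested probe. Alternatives changed the background correction, normalization, filter, array weights, probe choice, arrays in the fit and replicate block. No set test was run.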

Additional observations from a re-analysis of the deposited data

How the results depend on the processing

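Perifosine against control, both drugs against sorafenib, the interaction and the 3 other comparisons between groups kept 0 metallothioneins called under every alternative run. For sorafenib over both backgrounds the count of 1 became 2 without background correction, which added MT1H (0.32, adjusted p 0.034), and 0 without a filter on dim probes (MT1F adjusted p 0.196), with the replicate block (0.0718), with sorafenib replicate C and perifosine replicate B both left out (0.0668) and in each fit without 1 array, where the range was 0 to 0. The F test count of 0 became 1 without background correction (lowest adjusted p 0.0466). Over 21 alternatives MT1F changed by 0.30 to 0.36 and was called in 6, at adjusted p of 0.00483 to 0.196. SLC30A1 was called in 4 of 21, HMOX1 and DNAJB1 in 5, TSC22D3 in 7 and BBS2 in 11. The cause of these changes was not tested.

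Member changes of at least 0.1 reversed in 0 of 498 refits. Smaller ones reversed with array weights and without the pair of arrays: for MT1X, 0.027 and 0.092 for sorafenib against control, 0.009 and 0.021 for perifosine against control, -0.001 and -0.02 for both drugs against perifosine, -0.019 and -0.091 for both drugs against sorafenib, 0.013 and 0.036 over both backgrounds and -0.028 and -0.112 for the interaction. For MT2A they were 0.009 and 0.017 for both drugs against perifosine, and for MT1E 0 over both backgrounds with array weights. With 1 array left out the ranges that crossed 0 were -0.01 to 0.158 (MT1G) and -0.142 to 0.092 (MT1X) for sorafenib against control. For perifosine against control they were -0.001 to 0.113 (MT1F), -0.034 to 0.134 (MT1G) and -0.095 to 0.092 (MT1X), and for both drugs against control -0.108 to 0.01 (MT1E) and -0.062 to 0.125 (MT1X). For both drugs against perifosine they were -0.02 to 0.064 (MT1X) and -0.019 to 0.017 (MT2A), and for both drugs against sorafenib -0.014 to 0.075 (MT1E), -0.054 to 0.037 (MT1F), -0.119 to 0.049 (MT1H) and -0.091 to 0.143 (MT1X). Over both backgrounds they were -0.045 to 0.014 (MT1E) and -0.054 to 0.063 (MT1X), and for the interaction -0.059 to 0.175 (MT1X).

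The count of all probes called also moved. For sorafenib over both backgrounds it was 485, 228 to 477 with 1 array left out (over 1.5 times lower in 10 of 12 such fits) and 146 to 1109 otherwise. For sorafenib against control it was 114, 23 to 106 and 0 to 315; for both drugs against control 83, 27 to 99 and 13 to 279; for both drugs against perifosine 75, 12 to 76 and 0 to 322; and for the F test 111, 60 to 113 and 36 to 394. No clear pairing of the arrays by the letters A, B and C was seen. Deviations from group means correlated at -0.202 to 0.165 between arrays of 1 letter. Of these 18 pairs 2 were over 0.1, and 2 of 12 arrays correlated best with their own letter. Whether the letters mark a shared culture or batch was not tested. Perifosine replicate B and sorafenib replicate C deviated together at 0.345.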
